A study of Homo sapiens with 5 samples.

Results

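A group of 6 genes linked to eosinophil granules was followed in HL-60 cells treated with decitabine or with DMSO. Members were taken by gene name from the authors' deposited table of changes in translation efficiency, and all 6 of the 6 named genes were among its 6309 genes. RNASE2, RNASE3, PRG2, EPX and CLC encode proteins stored in eosinophils, and CEBPE encodes a transcription factor of granulocytes. The 6 genes were selected on their coefficients in this same comparison, whose values were known when the group was formed, so the values are a description and the deposited p-values are not independent evidence about the group.

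HL-60 is an established human promyelocytic leukaemia cell line, wild type by the labels, and every library came from it at 72 hours. Decitabine-treated cells received 100 nM at the start and again at 24 and 48 hours. DMSO-treated cells received the solvent and were the comparison. Decitabine is a deoxycytidine analogue that is built into DNA and traps DNA methyltransferases. Total RNA was sequenced in 2 decitabine libraries and 2 DMSO libraries, and the ribosome-protected fragments of the barcoded samples were sequenced in 1 pooled library.

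Ribosome profiling counts the mRNA fragments that ribosomes shield from nuclease. Translation efficiency is that signal relative to the total mRNA of the gene, so a lower value means fewer footprints for the same amount of mRNA. The deposited table gives 1 coefficient per gene for decitabine against DMSO, with a p-value, and holds no value of a single library. A negative coefficient is lower translation efficiency with decitabine. The coefficient was read as a natural log from the way the column is named, but its base is not stated. Each error below is an implied standard error, obtained by dividing the coefficient by the z-value of its p-value. It covers only the error that the authors' model counted, and the depth of the libraries is unknown. The cells were measured in bulk, so a change in the mix of cells and a change within every cell cannot be told apart.

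Eosinophil granules hold very basic, toxic proteins that are made in large amounts while the cell matures in the marrow and are then stored. They include major basic protein, a peroxidase and a pair of ribonucleases. Charcot-Leyden crystal protein is abundant in the same cells but lies in the cytoplasm. C/EBP-epsilon, the product of CEBPE, is needed for the late maturation of neutrophils and eosinophils and for the genes of secondary granules. HL-60 cells stand at the promyelocyte stage, where the azurophil granules of neutrophils are made, and are known to be able to turn on eosinophil genes.

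In the authors' deposited table all 6 genes had a coefficient below 0, and 1 of them, RNASE2, fell past the threshold of an adjusted p below 0.05. Of all its genes 0.174% were lower past that threshold, 0.634% were higher, and 0.808% passed in either direction. The median coefficient of the 6 genes was -0.34, against 0.09 over all 6309 genes. Coefficients below 0 made up 35.0% of the whole table. The group was put together from these coefficients, and nothing about it is read from the counts.

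**Figure D1:**
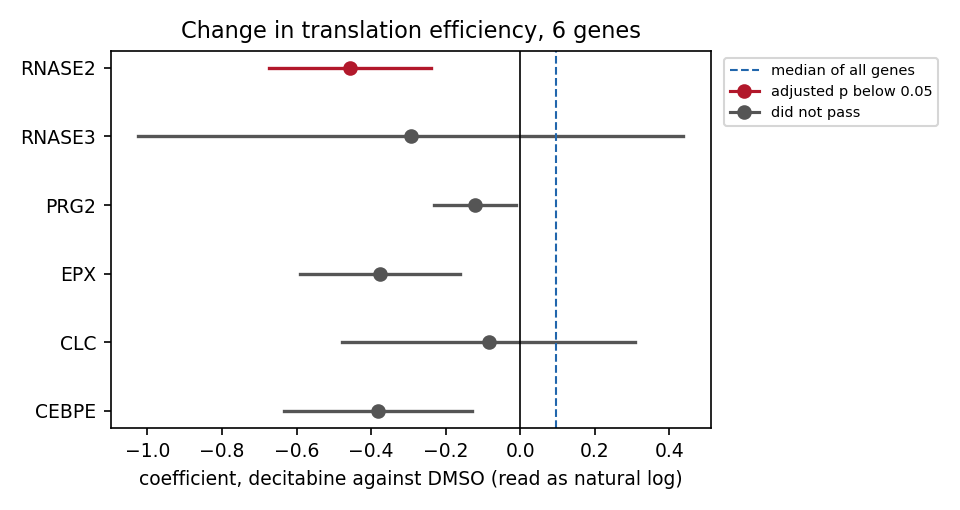
Coefficient of each of the 6 genes on the x axis, decitabine against DMSO, read as a natural log; points are the deposited values and bars the 95% intervals from the implied standard errors. All 6 points lie left of 0 and of the dashed median of all genes (0.09), with RNASE2 (red) lowest at -0.46, and the bars of RNASE3 and CLC reach across 0.

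RNASE2 encodes eosinophil-derived neurotoxin, a secreted ribonuclease with antiviral activity. Its translation efficiency fell, with a coefficient of -0.46 ± 0.11 (implied SE) and 0.0110 as its adjusted p by the authors' deposited table. With decitabine it was 0.633 times the DMSO level (95% interval 0.509 to 0.786). Had the coefficient been a log2 value, the ratio would be 0.728. By p-value RNASE2 stood in position 21 of the 6309 genes, and in position 8 among the 2206 genes below 0. Measured from the median of all genes instead of 0, its distance was -0.55 and its adjusted p 0.000437.

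RNASE3 encodes eosinophil cationic protein, the bactericidal relative of the RNASE2 product. Per the authors' deposited table its coefficient was -0.29 ± 0.37 (implied SE, adjusted p = 0.845), with a 95% interval from -1.03 to 0.44. The interval holds both the value of RNASE2 and 0, and 83.0% of all genes had a smaller implied standard error. RNASE2 and RNASE3 differed by -0.16 ± 0.39 (RNASE2 minus RNASE3, interval -0.93 to 0.60), so no difference between them was detectable at this precision.

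These ribonuclease genes are close copies that lie 63139 bases apart on chromosome 14 (GRCh38.p14, forward strand). RNASE2 spans 20955487 to 20956436 and RNASE3 spans 20891385 to 20892348. The counting of reads common to close copies was not given in the sources used here, which leaves the split of reads between them uncertain. The 100 bases before each RefSeq start are shown because the copying is visible there, with the longest run that they share in capitals. They cover chr14:20955387-20955486 for RNASE2 and chr14:20891285-20891384 for RNASE3.
RNASE2: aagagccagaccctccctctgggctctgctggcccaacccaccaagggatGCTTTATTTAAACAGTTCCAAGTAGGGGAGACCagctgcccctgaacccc
RNASE3: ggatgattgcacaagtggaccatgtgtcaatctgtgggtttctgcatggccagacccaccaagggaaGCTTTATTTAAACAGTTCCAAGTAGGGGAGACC
The shared run has 33 bases within these stretches. It begins 50 bases before the start of RNASE2 and 33 bases before that of RNASE3. In RNASE3 it reaches the last base shown, and whether it goes on past the start was not tested. Of 35116 RefSeq promoter windows, each covering the 250 bases before a start, the run was found in 2, those of this pair.

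Promoter windows were given for 4 of the 6 genes: RNASE2, RNASE3, CLC and CEBPE. The letters TTNNGNAA, a form of the C/EBP site searched on both strands, occurred in those of RNASE2 (145 to 138 bases before the start) and RNASE3 (94 to 87 bases before it). The same letters occurred in 33.2% of all windows. The letters GATAA, the core of a GATA site, occurred on either strand in the window of CLC, and in 20.4% of all windows. None of the 4 RefSeq starts began with C followed by 4 pyrimidines, the pattern of a terminal oligopyrimidine mRNA, which 5.77% of the table's genes with a window showed. A match of letters is a description only, and the transcript start used in these cells was not measured.

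PRG2 encodes major basic protein, the crystalline core of the eosinophil granule, made as an inactive proprotein. It had the smallest error of the group. Per the authors' deposited table the coefficient was -0.12 ± 0.06 (implied SE, adjusted p = 0.414), or 0.887 times the DMSO level (95% interval 0.794 to 0.989). The coefficient did not pass as deposited. From the median of all genes it lay at -0.22, and there it passed, with an adjusted p of 0.0274. Only 18 of the 6309 genes had a smaller implied standard error. PRG2 lies on chromosome 11 from 57386780 to 57390650.

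EPX encodes eosinophil peroxidase, which makes hypobromous acid from bromide and hydrogen peroxide. EPX stood by the authors' deposited table at -0.38 ± 0.11 (implied SE, adjusted p = 0.0597), or 0.686 times the DMSO level (95% interval 0.553 to 0.850). That adjusted p was just above the threshold, and the deposited q-value, 0.0495, was just below the same number. Centred on the median of all genes, EPX lay at -0.47 with an adjusted p of 0.00530. The gene spans 58192726 to 58205174 on chromosome 17.

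CLC encodes galectin-10, the protein of Charcot-Leyden crystals. Its coefficient by the authors' deposited table was nearest to 0 in the group, -0.08 ± 0.20 (implied SE, adjusted p = 0.933), with an interval from -0.48 to 0.31. In ratios the interval runs from 0.620 to 1.36 times the DMSO level, so neither a decrease as large as that of EPX nor an increase can be told from no change. CLC lies on chromosome 19 from 39731255 to 39738029. Once the table was centred on its median the adjusted p was 0.902.

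CEBPE, the transcription factor among the 6, by the authors' deposited table had a coefficient of -0.38 ± 0.13 (implied SE, adjusted p = 0.153). Its ratio of decitabine to DMSO was 0.683 (95% interval 0.530 to 0.879). It did not pass as deposited, and at -0.48 from the median of all genes it passed with an adjusted p of 0.0388. CEBPE lies on chromosome 14 from 23117306 to 23119255, on the same chromosome as the ribonuclease pair but in another region.

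**Figure D2:**
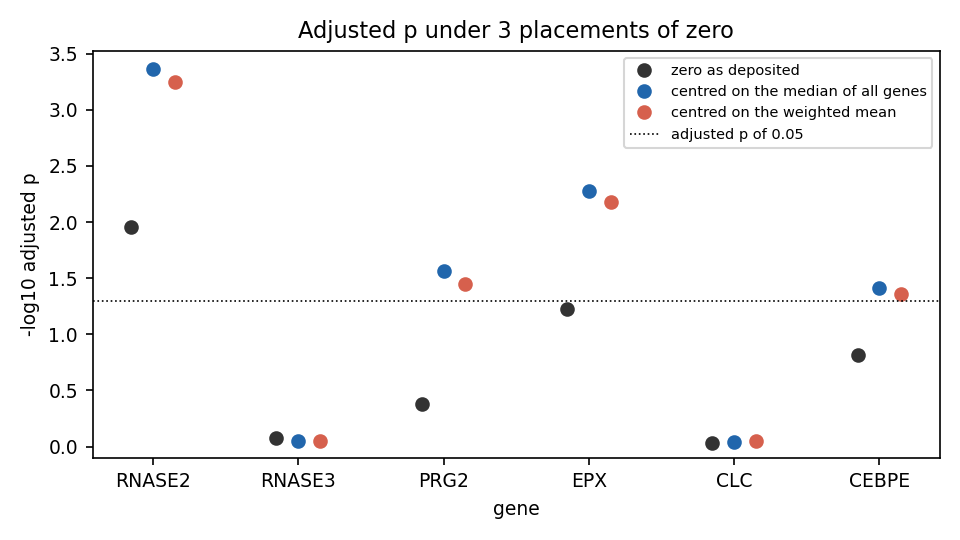
Adjusted p of the 6 genes on a -log10 scale (y axis) with zero placed as deposited, at the median of all genes, or at their precision-weighted mean; the dotted line is an adjusted p of 0.05. RNASE2 is above the line in each of the 3 placements, PRG2, EPX and CEBPE are above it in the centred ones, and RNASE3 and CLC are below it in each.

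The placement of zero moved the number of the 6 genes that passed. As deposited 1 of the 6 was lower past the threshold. With the table centred on its median 4 were (RNASE2, PRG2, EPX and CEBPE), where 0.507% of all genes were lower. With the precision-weighted mean as zero the same 4 passed, where 0.491% of all genes did. These 4 genes had an unadjusted p below 0.05, which 1.95% of all genes had with a negative coefficient. Their 95% intervals lay wholly below 0, which restates those p-values, since the intervals were computed from them. Whether the deposited zero or the median of the table marks no change cannot be told from the table, since the scaling of the libraries was not given in the sources used here.

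Other call rules gave between 0 and 2 lower genes among the 6. RNASE2 and EPX were lower at an adjusted p below 0.1 (0.317% of all genes), at a deposited q-value below 0.05 (0.19% of all genes) and without the 25% least precise genes (0.254% of the genes left). None of the 6 was lower at an adjusted p below 0.01 (0.0951% of all genes) or with the Benjamini-Yekutieli adjustment, a stricter correction (0.0951% of all genes). None was higher under any of these rules.

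Members were also compared with each other. Of 15 pairs, 13 had a 95% interval of the difference that included 0. RNASE2 lay below PRG2, with a difference (RNASE2 minus PRG2) of -0.34 ± 0.12 (combined implied SE, interval -0.58 to -0.09). PRG2 lay above EPX, with a difference (PRG2 minus EPX) of 0.26 ± 0.12 (interval 0.02 to 0.50). EPX and CEBPE had nearly equal coefficients, with a difference of 0.00 and an interval from -0.33 to 0.34. These combined errors treat the genes as independent although they share libraries, and they were not adjusted for the number of pairs. As the members were selected on these values, the differences are descriptions.

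The rank of each member among genes measured with like precision is given as a description, since the members were selected on these same coefficients and a low rank restates that choice. RNASE2 had the lowest coefficient among the 216 genes whose implied standard error was within 10% of its own, none of which lay lower. In the corresponding sets, 2 of 213 genes lay below EPX, 1 of 386 lay below CEBPE, and 1 of 15 lay below PRG2. For RNASE3 and CLC the sets were wide, and 16.6% of 953 genes and 17.9% of 892 genes lay lower. The sets of RNASE2, EPX and CEBPE each had a median of 0.12.

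**Figure D3:**
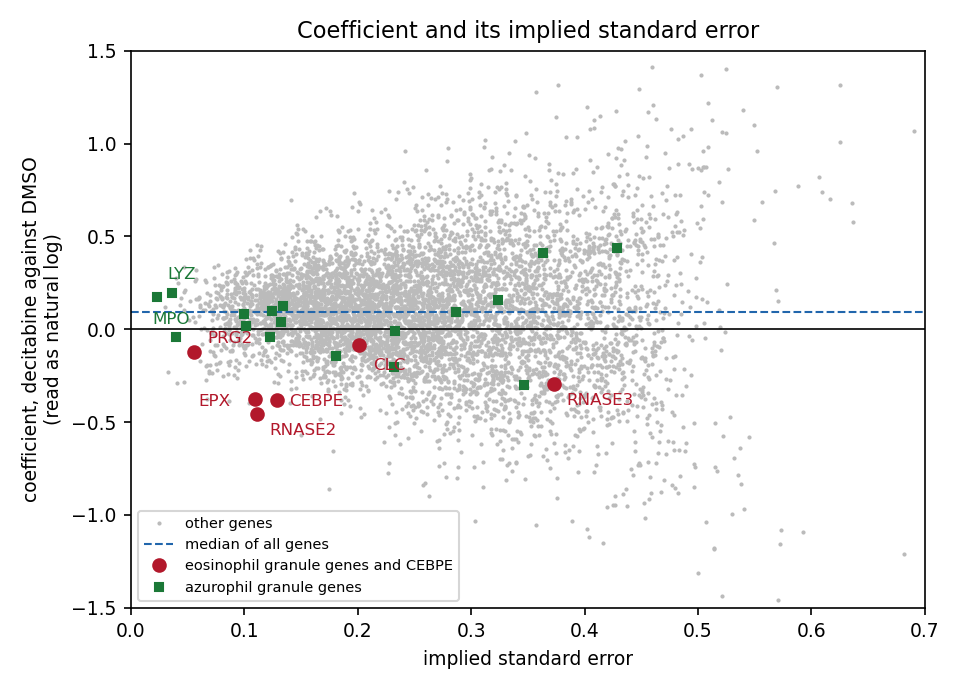
Coefficient (y axis, read as a natural log) against implied standard error (x axis) for the genes of the table, with the 6 genes in red and 17 azurophil granule genes in green; 11 genes lie outside the axes. RNASE2, EPX and CEBPE lie at the lower edge of the cloud near a standard error of 0.11 to 0.13, and PRG2, MPO and LYZ lie among the most precise genes, PRG2 below 0 and the other two above it.

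The genes with the most similar values were found within those sets by the nearest coefficient, from this 1 comparison. In the authors' deposited table those of RNASE2 were VIM, encoding vimentin, at -0.40 (adjusted p = 0.0276), then EPX itself, then NNT, the mitochondrial transhydrogenase, at -0.36 (adjusted p = 0.0979). NNT, VIM and RNASE2 stood nearest to EPX. In the authors' deposited table those of CEBPE included ALOX5AP, a protein of leukotriene synthesis, at -0.40 and MIA3, a cargo receptor of the endoplasmic reticulum, at -0.29. Neither of these passed. That of PRG2 was TKT, transketolase, at -0.17 in the authors' deposited table, where its adjusted p was 0.183, followed by NPM1, nucleophosmin, and LCP1, the actin-bundling protein L-plastin, both with coefficients above 0. The larger sets of RNASE3 and CLC held genes almost equal to them, TMEM192, MRPL46 and ST3GAL1 for RNASE3 and VSIR, GTSE1 and SEC23IP for CLC, none of which passed.

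Azurophil granule genes of the neutrophil line lay on both sides of 0. By its calls in the authors' deposited table, 2 of 17 measured genes rose, where 0.634% of all genes did. None fell and 15 did not pass. Of the 17 coefficients 6 were below 0, and 10 were below the median of all genes. The list median was 0.08, beside 0.09 over all genes. MPO, the neutrophil myeloperoxidase and a close relative of EPX, rose there with 0.17 ± 0.02 (implied SE, adjusted p = 1.36e-10 from the authors' deposited table). LYZ, lysozyme, rose as well, and the authors' deposited table gave it 0.19 ± 0.04 (adjusted p = 4.82e-05). With the authors' deposited table centred on its median, where 0.0793% of all genes were higher, neither passed (adjusted p = 0.0781 for MPO and 0.301 for LYZ). For comparison, by the authors' deposited table SRGN, the proteoglycan serglycin that packs basic granule proteins, had -0.04 ± 0.04 (adjusted p = 0.776), and the defensin gene DEFA1B had 0.41 (adjusted p = 0.762). DEFA1B has near-identical copies, so its value is uncertain in the same way as those of the ribonuclease pair.

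EPX and MPO lie in 1 peroxidase gene cluster on chromosome 17, with 64681 bases between them, and MPO spans 58269855 to 58280935. EPX minus MPO was -0.55 ± 0.11 (combined implied SE, interval -0.77 to -0.33). MPO also lay above RNASE2, PRG2 and CEBPE, with differences (member minus MPO) of -0.63 ± 0.11, -0.29 ± 0.06 and -0.56 ± 0.13. For RNASE3 and CLC the difference from MPO was -0.47 ± 0.37 and -0.26 ± 0.20, and those intervals included 0. A difference between genes does not depend on where zero is placed. MPO was looked at as a known high gene of this comparison, so these differences are descriptions and carry no p-value.

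**Figure D4:**
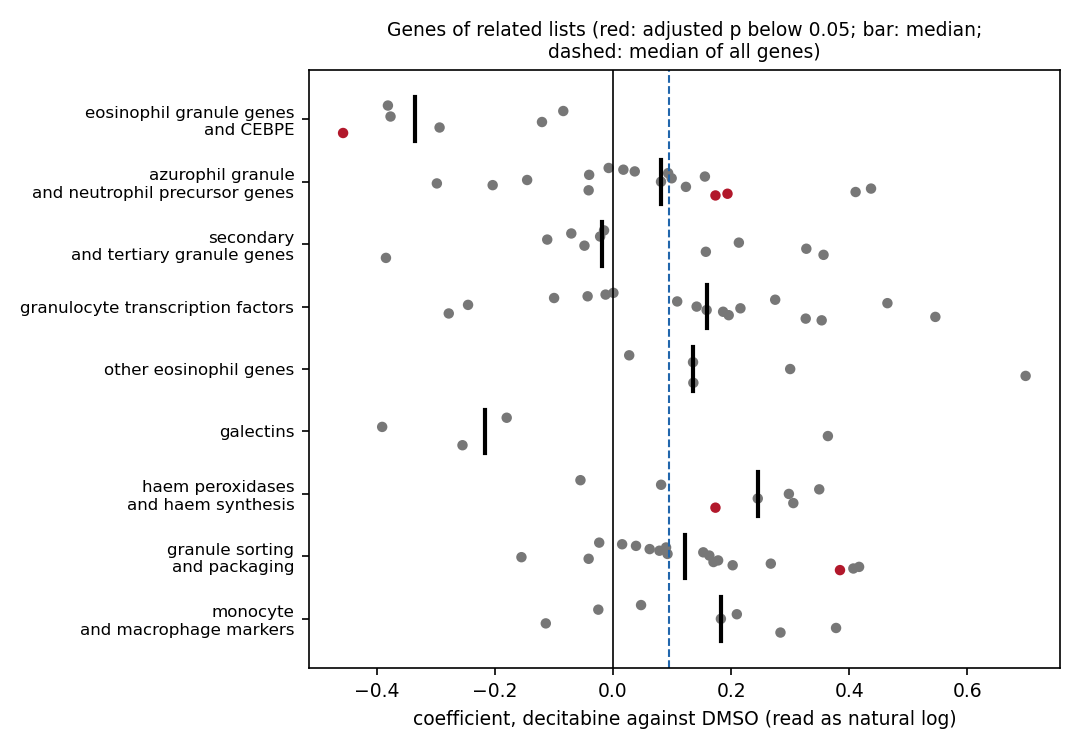
Coefficients (x axis, read as a natural log) of single genes in 9 groups (rows), with a bar at each group's median and a dashed line at the median of all genes (0.09); red points passed at an adjusted p below 0.05. CEBPE and the 5 genes of eosinophil proteins lie at -0.46 to -0.08, while the azurophil granule genes lie on both sides of 0 with MPO and LYZ in red.

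Secondary and tertiary granule genes, a class with several known targets of C/EBP-epsilon, were represented by 10 of 26 listed genes. The listed genes LTF, CAMP, LCN2, MMP8 and MMP9 were not analysed here, so the 10 stand for only a part of the class. None of the 10 passed in either direction, also at an unadjusted p below 0.05, and their median was -0.02, beside 0.09 over all genes. In the authors' deposited table CEACAM6, an adhesion molecule, had -0.38 ± 0.26 (implied SE, adjusted p = 0.651) and ITGAM, the integrin chain CD11b, had 0.36 ± 0.35 (adjusted p = 0.781). The authors' deposited table gave CTSS, the protease cathepsin S, 0.16 (adjusted p = 0.804), and PTX3, a pattern recognition protein, 0.33 (adjusted p = 0.842).

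Other transcription factors of granulocytes did not pass, with 17 of 24 measured and a median of 0.16. In the authors' deposited table SPI1, encoding PU.1, had 0.35 ± 0.12 (implied SE, adjusted p = 0.180). Of the genes named like CEBPE, the authors' deposited table gave 0.20 ± 0.13 for CEBPA (adjusted p = 0.618), 0.55 ± 0.26 for CEBPD (adjusted p = 0.428) and 0.33 ± 0.14 for CEBPZ (adjusted p = 0.388). CEBPB, also of that name, lay below 0 in the authors' deposited table, at -0.04 ± 0.24 (adjusted p = 0.971). CEBPZ shares the name but belongs to another protein family. CEBPE minus CEBPA, the C/EBP factor of early myeloid progenitors, was -0.58 ± 0.18 (combined implied SE), a description only, since CEBPE was selected on its coefficient here. At an unadjusted p below 0.05, 3 of the 17 factors were higher, where 8.35% of all genes were, and none was lower.

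Genes that pack and sort granule contents included 1 rise among 18 measured, where 0.634% of all genes rose. Their median was 0.12, beside 0.09 over all genes, and 9 of the 18 lay below the median of all genes. By the authors' deposited table LYST, the lysosomal trafficking regulator mutated in Chediak-Higashi syndrome, rose with 0.38 ± 0.11 (implied SE, adjusted p = 0.0369), though not after centring (adjusted p = 0.293). The authors' deposited table gave 0.41 for SDF4, a calcium-binding protein of the Golgi lumen (adjusted p = 0.233), 0.42 for VAMP8, a vesicle fusion protein (adjusted p = 0.397), and 0.20 for CD63, a tetraspanin of granule membranes (adjusted p = 0.630).

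Partners by protein family were also looked at. Of the galectins, the family of CLC, 4 of 12 were measured and none passed. Their median was -0.22, with LGALS1 at -0.26 ± 0.17 (implied SE), LGALS3 at -0.39 ± 0.37, LGALS8 at -0.18 ± 0.24 and LGALS12 at 0.36 ± 0.26 in the authors' deposited table. In the list of haem peroxidases and haem synthesis enzymes, which EPX and MPO need for their haem, MPO was the only rise among 7 measured genes (median 0.25), and CPOX, UROD and ALAD had 0.31, 0.25 and 0.30 without passing in the authors' deposited table. None of 12 listed relatives and inhibitors of the ribonucleases was analysed here.

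Markers of the cell types that could accompany eosinophil genes were sparse among the genes analysed. Of 9 eosinophil markers 5 were analysed, and all 5 are members of the group; the surface receptors IL5RA, CCR3 and SIGLEC8 and the PRG2 relative PRG3 were not analysed here. All 5 neutrophil precursor markers were analysed, against 1 of 5 basophil and mast cell markers and none of the 3 monocyte, 3 erythroid and 3 lymphoid markers. The single basophil and mast cell gene, KIT, the receptor of stem cell factor, had -0.08 ± 0.44 (implied SE) in the authors' deposited table, and it was also the 1 measured gene of 13 in the longer list of that lineage. Of 18 lymphoid genes only NKG7, a protein of cytotoxic granules, was measured, with -0.01 ± 0.30 in the authors' deposited table. No gene of 23 in the erythroid and megakaryocyte list was measured. In a longer list of other eosinophil genes 5 of 19 were measured and none passed, where 0.808% of all genes did. Their median was 0.14. All 5 had a coefficient above 0, as had 65.0% of all genes, and 1 lay below the median of all genes. The authors' deposited table gave 0.14 ± 0.09 for SERPINB10, a serpin of bone marrow, and 0.70 ± 0.62 for HRH4, a histamine receptor. CSF2RA, a chain of the GM-CSF receptor, had 0.30 ± 0.36 and PDE3B, a phosphodiesterase, 0.14 ± 0.22 in the authors' deposited table. Of 7 measured monocyte and macrophage genes (median 0.18) none passed, and the authors' deposited table gave 0.28 for CD4 (adjusted p = 0.381), 0.38 for CD68 (adjusted p = 0.597), -0.11 for S100A9 (adjusted p = 0.654) and 0.18 for FCGR1A (adjusted p = 0.886). The table gives no abundance, so the share of eosinophil-type mRNA in each treatment was not tested.

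Markers of HL-60 as a myeloid line were measured for 14 of 15 genes, with a median of 0.13, beside 0.09 over all genes. MPO, LYZ and MYC rose, where 0.634% of all genes did, and none fell. MPO and LYZ are the rises already counted among the azurophil granule genes. Of the 14 genes 4 had a coefficient below 0, and 7 lay below the median of all genes. MYC, the growth-promoting transcription factor whose gene is amplified in this line, had 0.34 ± 0.07 by the authors' deposited table (implied SE, adjusted p = 0.00185). None of MPO, LYZ and MYC passed with the table centred on its median.

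Genes next to the members on the chromosome were compared where the table held one within 200 kb. Beside EPX, by the authors' deposited table MKS1, a gene of the primary cilium whose span begins 267 bases past that of EPX, had -0.66 ± 0.49 (implied SE, adjusted p = 0.695). DYNLL2, a dynein light chain on the other side of EPX, stood at -0.47 ± 0.30 by the authors' deposited table (adjusted p = 0.618). Beside PRG2, the authors' deposited table gave -0.02 ± 0.09 for SLC43A3, a purine transporter (adjusted p = 0.974), and 0.08 ± 0.11 for SSRP1, a subunit of the histone chaperone FACT (adjusted p = 0.869). It was -0.09 ± 0.12 for ACIN1, an RNA-binding protein next to CEBPE (adjusted p = 0.842, the authors' deposited table). METTL17, a mitochondrial ribosome assembly factor next to RNASE2, stood at -0.18 ± 0.23 by the authors' deposited table (adjusted p = 0.846), and FBL, the nucleolar methyltransferase fibrillarin next to CLC, at -0.20 ± 0.36 (adjusted p = 0.908). None of these nearest neighbours passed as deposited or after centring, and MPO, the second gene on its side of EPX, passed as deposited in the opposite direction.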

How the data were processed

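Translation efficiency was measured in HL-60 cells by ribosome profiling with matched total RNA. Reads were handled with Bowtie2, SAMtools 1.11 and UMI-tools 1.1.1 on build hg38, per the submitters' processing notes, which give no roles or settings. The deposited table holds a coefficient per gene, taken as a natural log per the file headers' R-style names, with its p-value, adjusted p-value and q-value. The deposited adjusted p-value matched a Benjamini-Hochberg adjustment over all 6309 genes to within 6.61e-14. No values per library were in the table, so the planned count test was not run. Library depth is unknown, and p-values can reflect no more than the spread of these samples, which may be technical.

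Implied standard errors, centred coefficients and their p-values, adjusted over the whole table, were computed in Python 3.11.15 with scipy 1.17.1, and the procedure was tested on simulated data. The simulated data were drawn from the implied standard errors, so they tested the calculation and not the authors' model or the log base. Differences between genes carry the root sum of squares of the implied errors. Matching to RefSeq (GRCh38.p14) used the Ensembl identifier, or else the current or an older symbol, and succeeded for 6286 genes. The names of 6124 genes were current RefSeq symbols. Promoter sequences are RefSeq's. The members and the 13 gene lists were chosen with earlier results of these data known. Named genes are the members, CEBPB as a gene named like CEBPE, the 4 genes with the lowest p-values in each list, the nearest genes within 200 kb, and the 3 genes nearest in coefficient within 10% of a member's error. One gene that this rule names is not reported here. No set test was run.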

Additional observations from a re-analysis of the deposited data

How the results depend on the processing

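Of the 6 genes, 1 was lower as deposited, against 0 at an adjusted p below 0.01 or with the Benjamini-Yekutieli adjustment, 2 at an adjusted p below 0.1, with the deposited q-value or without the 25% least precise genes, and 4 after either centring or at an unadjusted p below 0.05; none was higher in any of these settings. For RNASE2 the adjusted p was 0.0110, above 0.01, and 0.103 with Benjamini-Yekutieli. The adjusted p of EPX was 0.0597 (below 0.1), 0.0463 without the imprecise genes, 0.00530 centred on the median and 0.00661 on the weighted mean; its q-value was 0.0495 and its unadjusted p 0.000568. PRG2 passed with 0.0274 on the median, 0.0355 on the weighted mean and an unadjusted p of 0.0317, and CEBPE with 0.0388, 0.0438 and 0.00307 in that order. RNASE3 is among the imprecise genes left out.

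Over all genes the lower and higher calls were 11 and 40 as deposited, 6 and 13 at 0.01, 20 and 66 at 0.1, 6 and 12 with Benjamini-Yekutieli, 32 and 5 centred on the median, 31 and 6 on the weighted mean, and 123 and 527 unadjusted. These changes follow from the thresholds and from the shift of every coefficient. In the lists, the azurophil and HL-60 marker rises (2 and 3) became 0 and 0 on the median and 1 and 1 on the weighted mean, and 5 HL-60 markers were higher unadjusted; the haem list's 1 rise became 0 on the median. The 1 rise in granule sorting became 0 at 0.01, with Benjamini-Yekutieli and with either centring, and 3 unadjusted; unadjusted, 3 granulocyte factors and 1 monocyte gene were higher, against 0 as deposited. No paired analysis was possible because the table holds no value per library, and for the same reason leaving out a replicate was not run. RNASE3 and CLC had the largest implied standard errors of the 6 genes, and CLC also had the coefficient nearest to 0.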
